A study of Mus musculus with 13 samples.

Results

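The genes described here are 7 markers of the universal fibroblast progenitor, the Pi16+ state shared by fibroblasts of many tissues: Pi16, Dpp4, Cd55, Sema3c, Anxa3, Ly6a and Ly6c1. They were taken by symbol from the 32285 genes in the count tables. Their levels were read in 100523 fibroblast barcodes of 120355 barcodes in 13 libraries of mouse mammary stroma. A fibroblast barcode had 500 to 7500 genes, at most 10% mitochondrial UMIs, at least 50 UMIs of Dcn, Lum and Col1a2 together per 10000, and no UMI of Epcam, Pecam1, Rgs5, Sox10, Ptprc or Myog.

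Of the 13 libraries, 9 came from wild-type C57BL/6 females and from sorted stromal cells that lacked lineage markers and CD24. The puberty (4 weeks by the labels, slightly older by the methods), adult virgin (9 weeks), pregnancy (day 14.5), lactation (day 10) and involution (day 4) libraries stood alone, and the placebo and MPA+E (medroxyprogesterone acetate with estradiol, given as pellets) groups at 9 weeks held 2 libraries each. The other 4 libraries came from raGFP-Wnt1 females (Pdgfra-GFP KI/+ with MMTV-Wnt1 T/+, mixed C57BL/6 and FVB), as 2 hyperplastic glands and 2 tumours sorted for GFP. The hyperplasia and tumour of the same number came from 1 mouse, aged 45 weeks for mouse 1 and 17 weeks for mouse 2. In this model the MMTV promoter drives Wnt1 in the mammary epithelium, and the GFP gate keeps only cells that use the Pdgfra locus. Wild-type libraries pooled 2 females per condition by the labels, and the methods give a pair of females for each hormone replicate.

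Universal fibroblast progenitors lie in the adventitia and in the fascia between tissue compartments, and are regarded as a reservoir from which more specialised fibroblasts arise. Pi16 is a secreted peptidase inhibitor domain protein that names the state. Dpp4 is a cell surface dipeptidyl peptidase, Cd55 restrains complement on the cell surface, and Sema3c is a secreted semaphorin guidance cue. Anxa3 is a calcium-dependent phospholipid-binding protein. Ly6a, known as Sca-1, and Ly6c1 are GPI-anchored surface proteins of the Ly6 family and are also well known on endothelium and on blood cells.

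All 7 are protein-coding genes. In GENCODE M21 on GRCm38, Pi16 lies on the plus strand at chr17:29317680-29330593 and Dpp4 on the minus strand at chr2:62330073-62412231. Cd55 is at chr1:130439027-130462744 (minus), Sema3c at chr5:17574281-17730268 (plus) and Anxa3 at chr5:96793339-96845966 (plus). Ly6a (chr15:74994877-74998031) and Ly6c1 (chr15:75044018-75048830), both on the minus strand, are neighbours with 45986 bases between them. Each of Cd55 and Ly6c1 has a close copy, and Cd55b and Ly6c2 stayed below 2 CPM (the UMIs of a gene scaled to the total of its library) in every library; reads that the copies share could not be assigned, so these levels carry that uncertainty.

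The 250 bases before the start site are shown for 3 of the 5 members with an entry in the RefSeq promoter table (GRCm38.p6), namely Sema3c and Dpp4, which fell in the hormone comparison, and Ly6c1, as a Ly6 gene (Ly6a and Anxa3 had no entry). Ly6c1 has 2 start sites in the table, and the upstream one is shown. Capitals mark 3 motifs searched on both strands, and the marked stretches do not overlap: TGTTCT (a hexamer bound by steroid receptors of the progesterone receptor type), the core of the interferon-stimulated response element, and TATAAA. Coordinates are chr5:17574566-17574815 (plus) for Sema3c, chr2:62412232-62412481 (minus) for Dpp4 and chr15:75048838-75049087 (minus) for Ly6c1. The start site of Sema3c differs between the 2 annotations, and this window lies inside its GENCODE gene.
Sema3c: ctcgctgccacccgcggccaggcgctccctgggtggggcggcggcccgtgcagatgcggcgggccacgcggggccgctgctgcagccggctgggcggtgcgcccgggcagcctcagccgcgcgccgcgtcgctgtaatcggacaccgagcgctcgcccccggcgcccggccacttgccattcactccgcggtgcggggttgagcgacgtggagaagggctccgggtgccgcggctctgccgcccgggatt
Dpp4: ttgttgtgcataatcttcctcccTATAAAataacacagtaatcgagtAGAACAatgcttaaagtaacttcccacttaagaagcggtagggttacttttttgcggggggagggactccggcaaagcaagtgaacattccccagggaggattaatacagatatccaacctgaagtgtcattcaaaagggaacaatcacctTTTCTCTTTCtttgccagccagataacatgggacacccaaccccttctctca
Ly6c1: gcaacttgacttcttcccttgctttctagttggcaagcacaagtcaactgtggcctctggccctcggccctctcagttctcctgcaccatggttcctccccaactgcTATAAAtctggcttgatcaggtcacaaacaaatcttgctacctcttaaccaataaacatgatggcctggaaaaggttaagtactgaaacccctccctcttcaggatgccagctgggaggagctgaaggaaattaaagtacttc
Sema3c held none of the 3 motifs in this window, Dpp4 held 1 of each and Ly6c1 held only the TATA motif. The window of the other Ly6c1 start site, chr15:75048664-75048913 (minus), held none of them. Of the windows not shown, that of Pi16, also inside its GENCODE gene, held 1 receptor hexamer, and that of Cd55 held none of the motifs. Among 32851 promoter windows of the same length, 16.1% held the receptor hexamer, 2.98% the interferon core and 12.4% the TATA motif.

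Each library held 5230 to 14424 barcodes and 56551189 to 112550204 UMIs, of which 4236 to 11951 were fibroblast barcodes, 84.7% to 94.5% of the barcodes within the limits on genes and mitochondrial UMIs. Depth differed, with a median of 3990 UMIs per fibroblast barcode in pregnancy and 20256 in tumour 2, so shares of barcodes were read after each barcode was thinned to 2000 UMIs, which left 96297. Pairs of libraries shared 3 to 34 fibroblast barcodes. Tumour 2 stood apart for every member. The member results of the tumour comparison and the correlations between members are given with and without it, and other results only where stated. Counting intervals cover counting error only.

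Across the 5 stages the members split into 2 patterns. Anxa3, Ly6a and Ly6c1 were high in puberty, the adult and pregnancy and low in lactation and involution, whereas Dpp4, Cd55 and Sema3c reached their highest level in lactation. Pi16 followed neither, with its low point in involution. There was 1 library per stage, so these are descriptions of single libraries with no test. Apart from pellets, the placebo libraries shared strain, age and sort with the adult library. For every member placebo differed from the adult in the same direction as lactation. Sema3c stood at 347 CPM in the adult, 619 and 576 with placebo and 561 in lactation. Dpp4 stood at 214, 325 and 319, and 303 in the same order. The other members with placebo lay between their adult and lactation levels. How far such library differences shaped the 2 patterns was not tested.

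The level of Ly6a was 3313 CPM at puberty, 3644 in the adult gland and 3200 during pregnancy, then 1348 during lactation and 1612 at involution. Its neighbour Ly6c1 stood at 1110, 1235, 1031, 507 and 604 CPM in the same order of stages. Anxa3 gave 944, 1086, 1018, 390 and 413 CPM. In all 3 genes the adult was highest and lactation lowest, and the ratio of these stages was 2.70 for Ly6a (95% interval 2.68 to 2.73), 2.44 for Ly6c1 (2.40 to 2.47) and 2.78 for Anxa3 (2.74 to 2.82). No neighbours in the order of stages had overlapping counting intervals for these genes. The summed level of the 6 endothelial markers was 45.1, 37.0, 55.2, 16.0 and 26.8 CPM in the same order, and that of the 8 interferon genes 1788, 1502, 1390, 456 and 1237 CPM. Both were lowest in lactation, as these 3 members were, and their part in the member levels was not tested. Kdr (21.4, 26.5, 40.6, 4.56 and 14.6 CPM) and Plvap (20.8, 9.2, 11.4, 9.98 and 10.1 CPM) made up most of the endothelial sum.

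Cd55, the complement regulator, moved the other way. Its levels were 152 CPM at puberty, 211 in the adult gland, 186 during pregnancy, 522 during lactation and 230 at involution, so that lactation was 3.45 times puberty (3.36 to 3.53). Sema3c gave 348, 347, 480, 561 and 361 CPM, and lactation was 1.62 times the adult (1.59 to 1.64). Dpp4 was the flattest of the 7, at 205, 214, 206, 303 and 205 CPM. For Dpp4 only lactation was set apart, at 1.47 times puberty (1.44 to 1.51), and the intervals of the other 4 stages overlapped between neighbours.

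Pi16 gave 1274 CPM at puberty, 1500 in the adult gland, 1456 during pregnancy, 1265 during lactation and 813 at involution. The adult level was 1.84 times that of involution (1.83 to 1.86). Puberty and lactation could not be separated by their counting intervals. The share of barcodes with a Pi16 UMI after thinning was 55.9%, 55.0%, 58.5%, 59.3% and 47.9% in the same order, and the counting intervals of pregnancy and lactation overlapped. Lactation held a share above that of the adult, while its level was below that of the adult. UMIs per Pi16-positive barcode were 5.35 in the adult and 4.65 in lactation. Of the comparison genes, Cd34, a surface sialomucin of this state, stood at 831, 885, 892, 695 and 532 CPM, and Col15a1, which marks the other universal fibroblast state, at 258, 250, 361, 607 and 400 CPM.

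**Figure D1:**
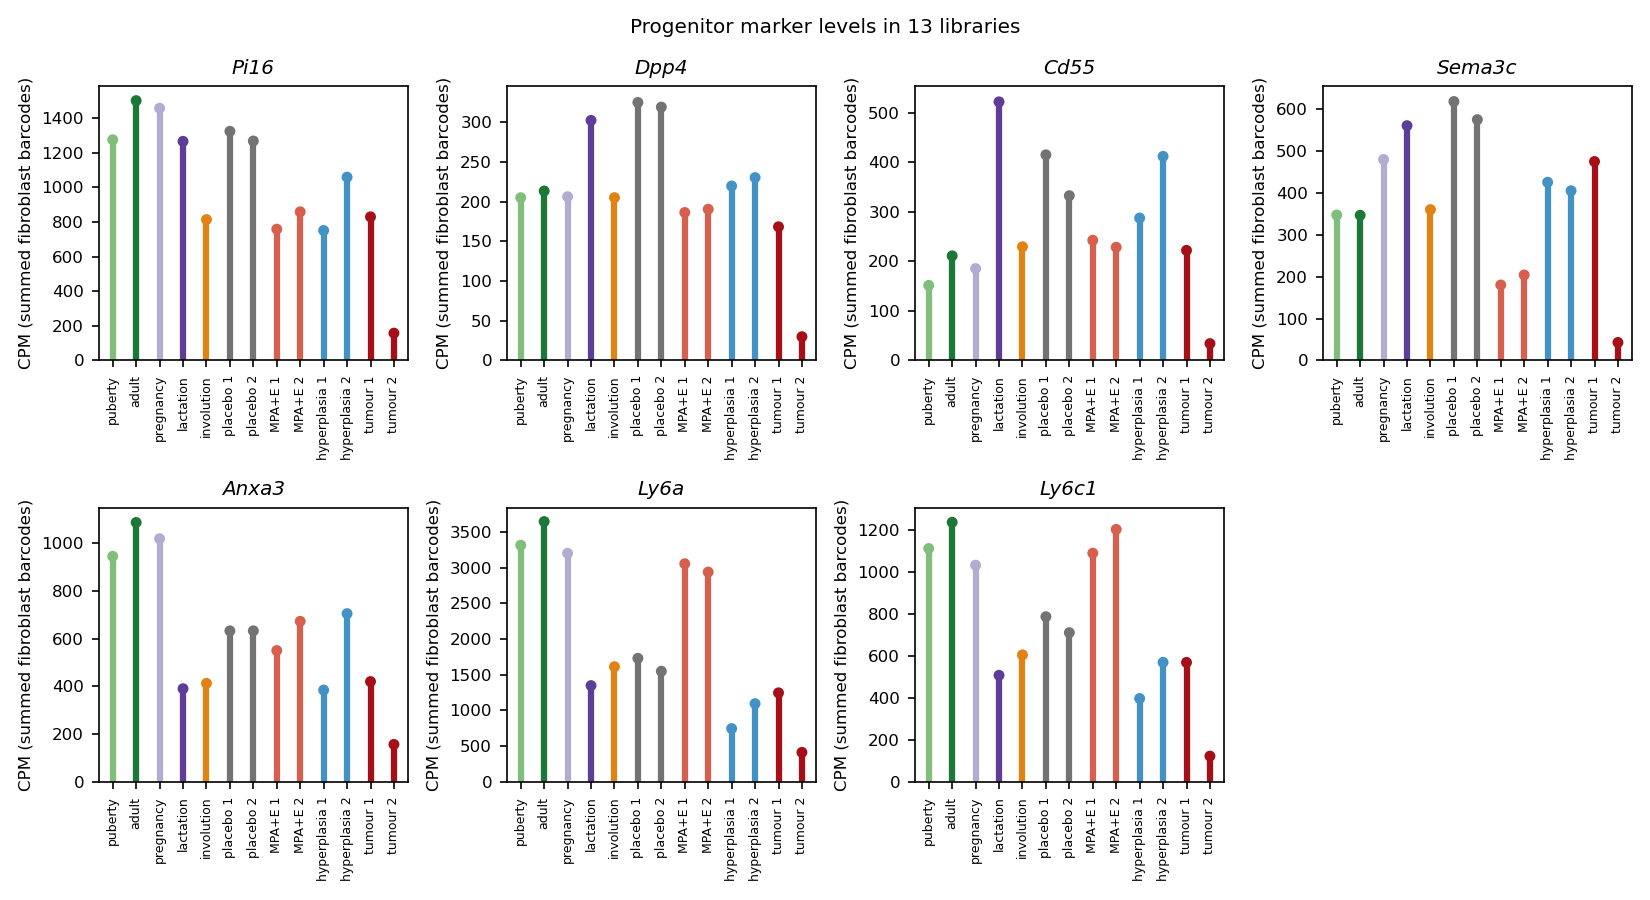
Level of each of the 7 members (y axis, CPM of UMIs summed over fibroblast barcodes) in the 13 libraries (x axis); points are single libraries coloured by group, and the 95% counting intervals are narrower than the points. All 7 members were lowest in tumour 2, while the Ly6 genes and Sema3c moved apart in lactation and under MPA+E.

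The hormone comparison asked how exposure to progestin and estrogen changes the mammary stroma. Under MPA+E, Sema3c and Dpp4 fell and Ly6a rose. Pi16 and Cd55 were lower and Ly6c1 higher in both treated libraries without passing the test, and Anxa3 overlapped. Of the 7 members 3 passed an adjusted p of 0.05 in edgeR's quasi-likelihood test, against 4.33% of all 15642 genes tested. The 2 that fell and the 1 that rose stood beside 1.64% of all genes lower and 2.69% higher. In the untreated adult library Dpp4 stood at 214 CPM, Ly6a at 3644, Cd55 at 211 and Ly6c1 at 1235. For these members the MPA+E libraries lay closer to the adult than the placebo libraries did. The adult level of Sema3c, 347 CPM, lay between the groups, and that of Pi16, 1500 CPM, was closer to placebo. The part of the placebo levels in these results was not tested.

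Sema3c gave 619 and 576 CPM in the placebo libraries and 180 and 204 in the MPA+E libraries. It fell by 1.62 on the log2 scale (SE 0.14, edgeR adjusted p = 0.00942), to 0.325 of the placebo level. The groups did not overlap. Dpp4 gave 325 and 319 CPM with placebo, and the treated pair gave 187 and 191. It fell by 0.76 on the log2 scale (SE 0.11, edgeR adjusted p = 0.0310). The SD between replicates was 4.12 CPM with placebo and 2.90 with MPA+E, and the groups did not overlap.

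Ly6a gave 1730 and 1549 CPM with placebo, and the treated pair gave 3054 and 2937. It rose by 0.88 on the log2 scale (SE 0.13, edgeR adjusted p = 0.0300), 1.84 times the placebo level. Both treated libraries stood above both placebo libraries. Ly6c1 gave 786 and 710 CPM with placebo, and the treated pair 1088 and 1201, with a log2 fold change of 0.63 (SE 0.14, edgeR adjusted p = 0.0828). The pair of Ly6 genes thus had the same sign, and 1 of them passed the test.

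Pi16 gave 1323 and 1267 CPM with placebo, and the treated pair 758 and 858, a log2 fold change of -0.67 (SE 0.14, edgeR adjusted p = 0.0846). Cd55 gave 415 and 333 CPM with placebo, and the treated pair 243 and 229, at -0.65 (SE 0.11, edgeR adjusted p = 0.0518). For both genes the groups did not overlap. Anxa3 gave 632 in both placebo libraries and 550 and 672 CPM under MPA+E, a log2 fold change of -0.03 (SE 0.17, edgeR adjusted p = 0.948). In all, 6 of the 7 members did not overlap between the groups, compared with 43.6% of all genes tested.

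The shares of barcodes told the same order. After thinning, 40.5% and 41.9% of placebo barcodes held a Sema3c UMI and 20.9% and 23.1% of MPA+E barcodes did. Each positive barcode held 2.80 and 2.57 Sema3c UMIs with placebo, and 1.72 and 1.68 in the treated pair, so that both the share and the number per positive barcode were lower. For Ly6a the share went from 70.7% and 72.4% to 78.9% and 74.0%, and the UMIs per positive barcode from 4.31 and 3.89 to 7.14 and 7.30. Pi16 was found in 44.6% and 48.4% of placebo barcodes and in 39.6% and 42.0% of MPA+E barcodes.

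Barcodes were also split by whether they held a Pi16 UMI, and the other 6 members were read on each side, as a description with no test. Among Pi16-positive barcodes, Sema3c stood at 1157 and 1001 CPM (after thinning) with placebo and at 365 and 395 in the treated pair, a ratio of 0.352 between the group means. Dpp4 and Cd55 had ratios of 0.644 and 0.640 there, Ly6c1 had 1.47, and Anxa3 had 0.944 with overlapping groups. Ly6a in Pi16-positive barcodes stood at 2223 and 2007 CPM with placebo and 3768 and 3847 in the treated pair, a ratio of 1.80. In barcodes without a Pi16 UMI the ratio was 2.25 for Ly6a, 1.99 for Ly6c1, 1.96 for Anxa3, 1.04 for Cd55, 0.820 for Dpp4 and 0.528 for Sema3c. The Ly6 genes were higher in both treated libraries on both sides of the split, and Cd55 overlapped between the groups in barcodes without a Pi16 UMI. Pi16 itself was found in 44.6% and 48.4% of thinned barcodes with placebo and in 39.6% and 42.0% in the treated pair, so a side of the split need not hold the same kinds of barcode in both groups.

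**Figure D2:**
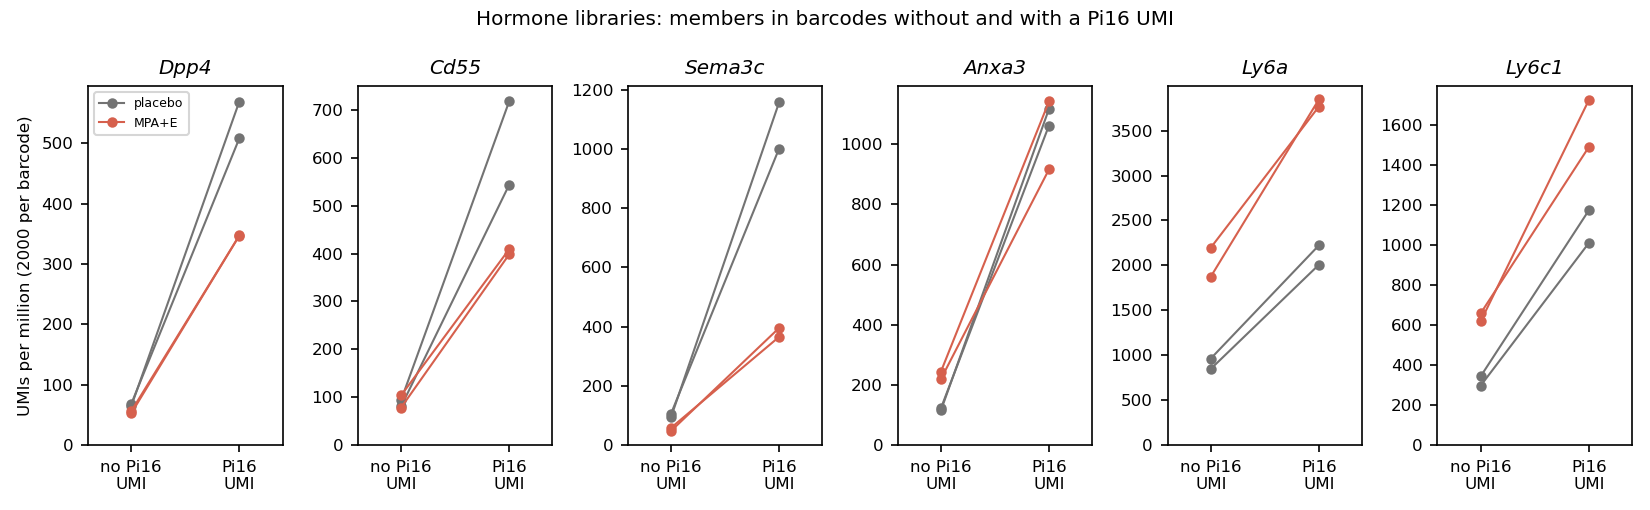
Level of the other 6 members (y axis, CPM after thinning to 2000 UMIs per barcode) in barcodes without and with a Pi16 UMI (x axis) of the 2 placebo (grey) and 2 MPA+E (red) libraries; each line is 1 library. In Pi16-positive barcodes Sema3c, Dpp4 and Cd55 lay lower in both MPA+E libraries and Ly6a and Ly6c1 higher.

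Of 22 other genes of the Pi16 programme, 7 passed the test as lower under MPA+E and none as higher. The median log2 fold change was -0.54 beside 0.01 over all genes. Igfbp6 was higher in both treated libraries without passing (0.77, SE 0.15, edgeR adjusted p = 0.0618). Ackr3, Procr, Klf4, Ogn and Cd34 also had fold changes above 0. The genes that fell were Gap43 (-2.85), Smpd3 (-2.52), Igfbp5 (-2.37), Dact2 (-1.56), Limch1 (-1.23), Pcolce2 (-1.17) and Wnt2 (-1.09). Smpd3 encodes a neutral sphingomyelinase, Pcolce2 an enhancer of procollagen processing, Igfbp5 a binding protein of insulin-like growth factors, and Wnt2 a Wnt ligand. Cd34 gave a log2 fold change of 0.27 (SE 0.11, edgeR adjusted p = 0.296), and Col15a1 gave 0.44 (SE 0.14, edgeR adjusted p = 0.190). Within the 8 genes of the Col15a1 programme 0 passed in edgeR, and 4 had an unadjusted p under 0.05, beside 2893 of all 15642 genes.

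Some genes of the lists of other fibroblast states passed the test, and most did not. Of 6 ECM remodelling genes Crabp1 (1.51), Stra6 (0.84) and Lox (0.64) rose, of 4 preadipocyte genes Fabp4 (-1.61) and Pparg (-1.01) fell, and of 6 lobular genes Tgfbi (-2.74) and Fndc1 (-1.41) fell. Fndc1, unlike Tgfbi, was higher in barcodes with at least 4 members than in those with at most 1, at mean log2 ratios of 3.25 and -0.99. F3 (-0.89) fell among 4 adipogenesis-regulatory genes and Tnc (-1.53) among 6 myofibroblastic genes. The lobular and myofibroblastic medians, 0.20 and 0.09, had the opposite sign to the genes of those lists that fell. Crabp1 and Stra6 handle retinoids, Lox crosslinks collagen, and Fabp4 and Pparg belong to the adipocyte lineage. Without either placebo library Tgfbi was the only one of these 9 genes still called. The part of these states in the member results was not tested.

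All 8 genes of the interferon list rose under MPA+E, from Ifit1 (1.43) to Ifi44 (4.02), and their summed level was 4391 and 4514 CPM against 1083 and 942 under placebo. Ly6e, a further Ly6 gene that is also known to respond to interferon, stood at 1177 and 1055 CPM under MPA+E and 420 and 315 under placebo. The summed level of 6 endothelial markers, none of them at 0, was 51.3 and 52.2 CPM under MPA+E and 29.6 and 29.2 under placebo. Kdr alone gave 43.2 and 45.2 CPM under MPA+E and 14.21 and 14.15 under placebo, and Cdh5, Vwf, Emcn and Egfl7 each stayed below 1 CPM. Of the 5 endothelial markers tested, Kdr (1.65) and Vwf (2.21) rose and Plvap (-1.25) fell. Of 5 pericyte markers Abcc9 (-1.52) and Kcnj8 (-1.34) fell. The summed level of the 5 was 21.2 and 19.8 CPM in the treated pair where placebo gave 48.0 and 48.3, and Abcc9 and Kcnj8 made up most of it. The part of the interferon genes and of endothelial or pericyte RNA in the member results was not tested.

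Without placebo 1 or without placebo 2 the number of members called was 0, without MPA+E 1 it was 1 and without MPA+E 2 it was 2, while the signs of the 6 members other than Anxa3 held in each. Leaving out placebo 1 left 0.136% of all genes tested called, and leaving out placebo 2 left 0.257%. The shares were 5.66% and 4.94% when the first or the second treated library was left out. With DESeq2 6 of 7 members passed, where 8.68% of all genes did (1358 of 15642). Of the 7 Pi16 programme genes that fell, 0 passed without placebo 1 and 1 (Smpd3) without placebo 2, and of the 8 interferon genes 3 and 4 did. The endothelial and pericyte markers named had 0 calls without either placebo library, and Vwf also lost its call without either MPA+E library.

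The tumour comparison set fibroblasts of the tumour beside those of the hyperplastic gland of the same mouse. The 2 mice did not behave alike. In mouse 2 all 7 members were far lower in the tumour. In mouse 1 Dpp4 and Cd55 were lower and the other 5 were higher, Pi16, Sema3c and Anxa3 only slightly. None of the 7 passed the limma-voom test over both mice, against 29.3% of 16302 genes (15.4% higher and 13.9% lower). In limma-voom 1 of the 7 (Cd55) had an unadjusted p under 0.05, beside 7411 of the 16302 genes. With edgeR 0 members were called, beside 28.3% of all genes. None of the 7 had an unadjusted p under 0.05 in edgeR, beside 7242 of all genes.

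Pi16 gave 750 and 1058 CPM in hyperplasia 1 and 2, and 829 and 157 in tumour 1 and 2. Sema3c gave 426 and 406 in hyperplasia and 475 and 43.0 in the tumours. Ly6a gave 747 and 1095 in hyperplasia and 1247 and 413 in the tumours. Each of these 3 was higher in the tumour of mouse 1 and lower in that of mouse 2, so the groups overlapped.

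Dpp4 was 220 and 231 CPM in hyperplasia and 169 and 29.9 in the tumours. Cd55 was 288 and 412 CPM in hyperplasia and 222 and 34.0 in the tumours. These were the 2 members whose groups did not overlap, compared with 72.2% of all genes. Their log2 fold changes were -1.67 for Dpp4 (SE 0.74, limma adjusted p = 0.126) and -1.99 for Cd55 (SE 0.82, limma adjusted p = 0.106).

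Anxa3 stood at 385 and 705 CPM in hyperplasia and 420 and 157 in the tumours, and Ly6c1 at 397 and 569 CPM in hyperplasia and 568 and 123 in the tumours. The log2 fold changes of the 5 overlapping members lay between -1.55 (Sema3c) and -0.33 (Ly6a), with standard errors of 0.50 to 1.00. The 2 tumours lay far apart, and Cd55 had an SD of 133 CPM around a mean of 128.

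Without tumour 2 none of the members was called, and their log2 fold changes ran from -0.60 (Cd55) to 0.50 (Ly6a), with Sema3c (0.23), Ly6a and Ly6c1 (0.30) on the other side of 0. Without tumour 1 all 7 passed, from -1.15 for Ly6a (limma adjusted p = 0.00838) to -3.36 for Cd55 (limma adjusted p = 0.000188), in a fit where the lone tumour was assumed to vary like the other groups. That fit called 41.9% of all genes tested (7120 of 17002), and the fit without tumour 2 called 20.5% (3459 of 16901). With 1 tumour on each side, neither describes tumours in general.

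Of the 22 genes of the Pi16 programme, 5 fell (Dact2, Procr, Klf4, Igfbp6 and Tppp3) and Mfap5, a microfibril-associated protein, rose. The median log2 fold change of the list was -1.59 beside -0.01 over all genes. Without tumour 2 the median was -0.59, with 8 genes lower and 2 higher (Fbn1 and Mfap5), and without tumour 1 it was -2.34, with 17 lower and 0 higher. Of all genes tested, 8.53% were lower and 11.9% higher without tumour 2, and 20.6% lower and 21.3% higher without tumour 1. Without hyperplasia 1 or without hyperplasia 2 none of the 22 passed, at medians of -1.69 and -1.46, where 1.43% and 1.84% of all genes did. Cd34 gave -1.31 (SE 0.60, limma adjusted p = 0.136), which became -0.27 without tumour 2 and -2.33 without tumour 1. Col15a1 gave 0.65 (SE 0.25, limma adjusted p = 0.0888), and 0.32 and 0.98 without tumour 2 and tumour 1. Of the 5 cycling genes all rose in the tumours, and of the 6 myofibroblastic genes 5 did, among them Acta2 (8.25), Tagln (7.74) and Lrrc15 (4.95). Without tumour 2 the 2 lists had 5 and 4 genes higher, and without either hyperplasia library 0 and 3. The summed myofibroblastic level was 3701 CPM in tumour 1 and 7671 in tumour 2, against 1814 and 802 in hyperplasia 1 and 2. Its part in the lower member levels of tumour 2 was not tested.

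Among the other lists, all 4 preadipocyte genes fell in the tumours, namely Cd36 (-4.38), Fabp4 (-2.19), Pparg (-1.83) and Lpl (-1.81). Of the ECM remodelling genes Mgp (2.52), Stra6 (2.07) and Lox (1.23) rose and Pla2g7 (-3.01) fell, and of the lobular genes Cilp (3.05) rose and Tgfbi (-3.06) fell. Fmo2 (-2.88) and Gdf10 (-1.59) of the adipogenesis-regulatory list, Sparcl1 (-2.57) and Col4a1 (-0.61) of the Col15a1 programme, and Rsad2 (-2.26), Irf7 (-1.50), Ifit3 (-1.41) and Isg15 (-1.11) of the interferon list fell. Without tumour 2 the preadipocyte, ECM remodelling, lobular and adipogenesis-regulatory genes named were all still called, and without either hyperplasia library none of the ECM remodelling, adipogenesis-regulatory and interferon genes was. Of the lineage checks, Cd52 (3.72), Tyrobp (3.45) and C1qa (2.17) rose and Cd68 (-1.64) fell among immune markers, whose sum was 2.86 and 3.13 CPM in the tumours and 3.65 and 2.93 in hyperplasia. Mcam (3.03) rose among pericyte markers, Plvap (-1.37) fell among endothelial markers, and of the fibroblast markers Col1a1 (1.99) rose and Dcn (-1.63) and Pdgfra (-0.81) fell. The part of these lists in the member levels was not tested.

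Hyperplasia was then set beside the normal virgin gland, the puberty and adult libraries. Strain, alleles, sort and age all differed between these groups and cannot be told apart from hyperplasia. The normal group held 1 library of each stage, so the spread within it also holds the difference between puberty and the adult. None of the 7 members passed the limma-voom test, against 14.0% of 16302 genes (7.70% higher and 6.29% lower). In limma-voom 1 of them, Ly6a, had an unadjusted p under 0.05, beside 5707 of the 16302 genes. The edgeR fit gave the same 2 member counts, where it called 15.1% of all genes and 5878 had an unadjusted p under 0.05. All 7 had groups that did not overlap, compared with 70.6% of all genes.

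Ly6a showed the widest distance, with 3313 and 3644 CPM in the normal glands and 747 and 1095 in hyperplasia. Its log2 fold change was -1.98 (SE 0.51, limma adjusted p = 0.0505), close to the threshold, and it passed with RLE size factors, with no filter on low counts and without the top 5% of barcodes by UMIs. Ly6c1 was at -1.34 (SE 0.68, limma adjusted p = 0.207) and Anxa3 at -0.999 (SE 0.51, limma adjusted p = 0.208). Cd55 lay on the other side, at 152 and 211 CPM in the normal glands and 288 and 412 in hyperplasia (0.91, SE 0.82, limma adjusted p = 0.464). Pi16 (-0.67), Sema3c (0.22) and Dpp4 (0.07) had errors at least as large as their changes, at 0.73, 1.00 and 0.75. The errors of this fit are shared by normal, hyperplasia and tumour libraries, so they also hold the distance between the 2 tumours. Sema3c gave 348 and 347 CPM in the normal glands and 426 and 406 in hyperplasia, but 475 and 43.0 in the tumours. No fit of this comparison left out a tumour.

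Of the 22 Pi16 programme genes 1 fell (Gap43, -3.15) and none rose. Gap43 did not pass without puberty or without either hyperplasia library. Of the 8 interferon genes 7 fell, and the other, Ifit1, gave -2.01 without passing. Leaving out a library left 0 (either hyperplasia library), 1 (puberty) or 3 (adult) of them called. Of all genes tested, the calls then came to 0.0118% without hyperplasia 1, 0.00586% without hyperplasia 2, 0.0470% with puberty left out and 1.08% with the adult left out. Their summed levels were 528 and 369 CPM in hyperplasia against 1788 and 1502 in puberty and the adult. The endothelial markers, mostly Kdr and Plvap by level, summed to 28.4 and 36.8 CPM in hyperplasia, and puberty and the adult gave 45.1 and 37.0. Vwf (2.55) rose and Kdr (-1.72) fell among them, and neither passed with any library left out. Of 6 ECM remodelling genes 5 rose in hyperplasia, namely Pla2g7 (4.83), Crabp1 (4.74), Mgp (1.498), Mmp3 (1.33) and Lox (1.28), with a list median of 1.41. Without the adult or without puberty Crabp1 and Pla2g7 still passed, and without either hyperplasia library none did. Sparcl1 (2.44), F3 (1.70), Pparg (0.75) and Cdkn2a (4.63) also rose, and Cilp (-1.78), Eng (-1.15), Acta2 (-4.46) and Tagln (-2.75) fell. None of these 8 passed without either hyperplasia library. The part of these lists in the member differences was not tested. Cd34 was at -0.49 (SE 0.60, limma adjusted p = 0.600) and Col15a1 at 0.01 (SE 0.24, limma adjusted p = 0.971).

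**Figure D3:**
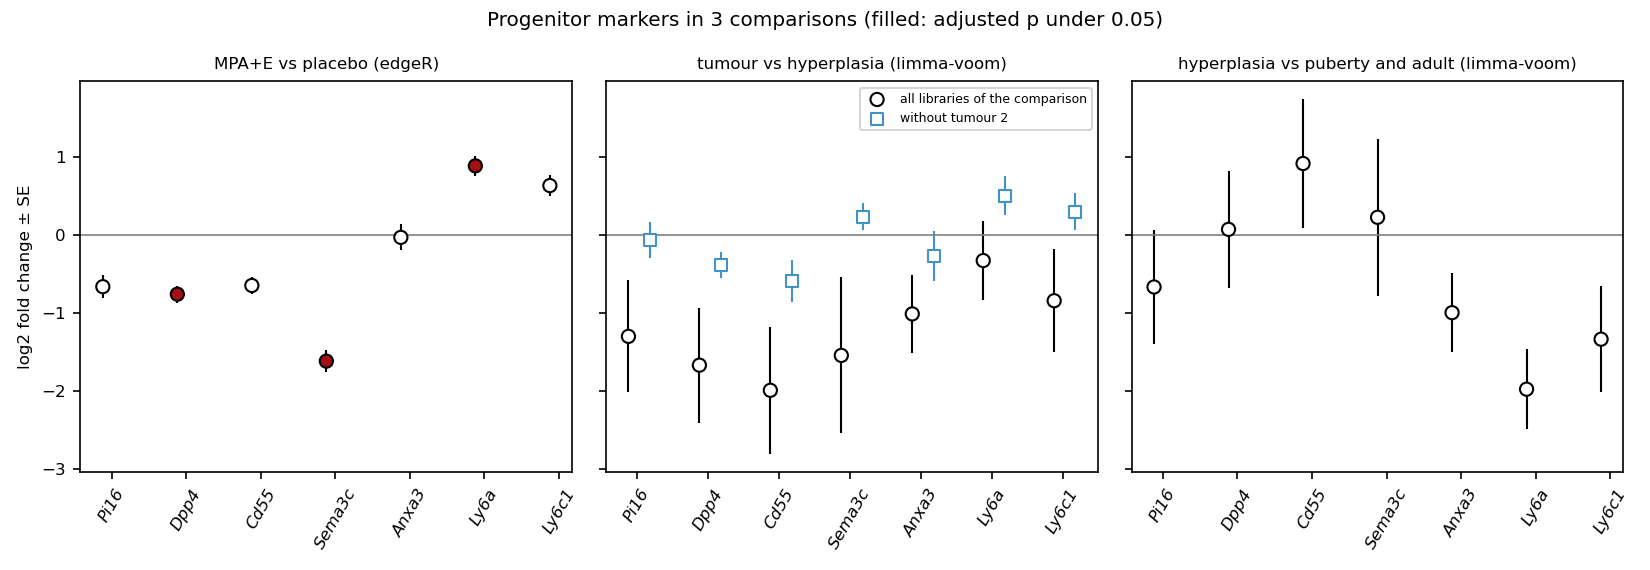
Log2 fold change (y axis) with its standard error (bars) of the 7 members (x axis) in the MPA+E, tumour and hyperplasia comparisons; filled points have an adjusted p under 0.05, and blue squares show the tumour comparison without tumour 2. Sema3c, Dpp4 and Ly6a were the members called, all of them under MPA+E.

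Across the 13 libraries the levels of Ly6a and Ly6c1 ran closest together, with Pearson's r of 0.96 and Spearman's rho of 0.93 on the log2(CPM + 1) scale. These correlations are descriptions over libraries that include replicates and pairs from 1 mouse, and several rest on tumour 2. Without tumour 2, over 12 libraries, Ly6a and Ly6c1 gave r = 0.97, Anxa3 gave 0.75 with Ly6a and 0.79 with Ly6c1, and Dpp4 gave 0.74 with Cd55 and 0.67 with Sema3c. Between the blocks the sign of r turned, with -0.62 for Cd55 and Ly6a and -0.54 for Sema3c and Ly6c1, which had been 0.30 and 0.53 over all 13. Spearman's rho of these pairs was already below 0 over all 13, at -0.29 and -0.21. Removal of tumour 2 was chosen after seeing the data.

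The genes most like each member across the 13 libraries, among 7865 genes, were in part other genes of the Pi16 programme. Pi16 had Limch1 (r = 0.98), Tubb4a (0.98) and Emilin2 (0.98), and Dpp4 had Arhgap20 (0.98), Pcolce2 (0.97) and Ston2 (0.97). Cd55 had Add3, Tlr4 and Gngt2 (0.97, 0.97 and 0.95), and Sema3c had Opcml, Agtr1a and Pamr1 (0.96 each). Anxa3 had Blvrb, Thbd and Triobp (0.94, 0.94 and 0.93). Ly6a and Ly6c1 had each other first, followed by Plekha4 and Pnp2 for Ly6a (0.96 and 0.95) and by Lmo2 and Cd34 for Ly6c1 (0.95 and 0.93). Without tumour 2 these values lay between 0.81 (Ly6c1 with Cd34) and 0.97.

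Within libraries, pairs of members were found in the same barcodes more often than independent genes would be. For each of 21 pairs and each library, the number of thinned barcodes with both genes was divided by the number expected if the genes were spread independently. The ratio was above 1 in all 21 pairs in 13 of 13 libraries. The members that diverged across libraries, such as Cd55 and Ly6a, were still found together more often than expected in every one of them.

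The median log2 ratio of Dpp4 with Sema3c was 0.96 (SD 0.36 over 13 libraries), or 1.94 times the expected number. It was 0.95 for Cd55 with Sema3c and 0.91 for Dpp4 with Cd55. The 6 pairs with Ly6a had medians of 0.26 to 0.38. A widely detected gene leaves little room above the expectation, and Ly6a was found in 93.5% of thinned barcodes in puberty and 49.5% in hyperplasia 1. Neither the order of pairs nor that of libraries is therefore read from these ratios. The median over the 21 pairs was 0.31 in pregnancy and 1.20 in hyperplasia 1, with the other libraries between them.

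Pairs of a member with a gene of the lobular, preadipocyte, adipogenesis-regulatory and ECM remodelling lists lay on the other side. Their median was between -0.96 (hyperplasia 2) and -0.36 (tumour 1) in 12 libraries and -0.05 in tumour 2. Pairs with the ECM remodelling genes, among them Crabp1 and Mgp, had medians from -2.01 in placebo 1 to -0.32 in tumour 2. Pairs with the lobular list had medians between -0.27 and 0.08, above 0 in MPA+E 1 and 2, hyperplasia 1 and tumour 2. In tumour 2 the preadipocyte and adipogenesis-regulatory medians were also above 0, at 0.07 and 0.10. Pairs with the Col15a1 programme had medians of -1.02 to -0.16, and pairs with the 22 Pi16 programme genes of 0.20 to 0.76.

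**Figure D4:**
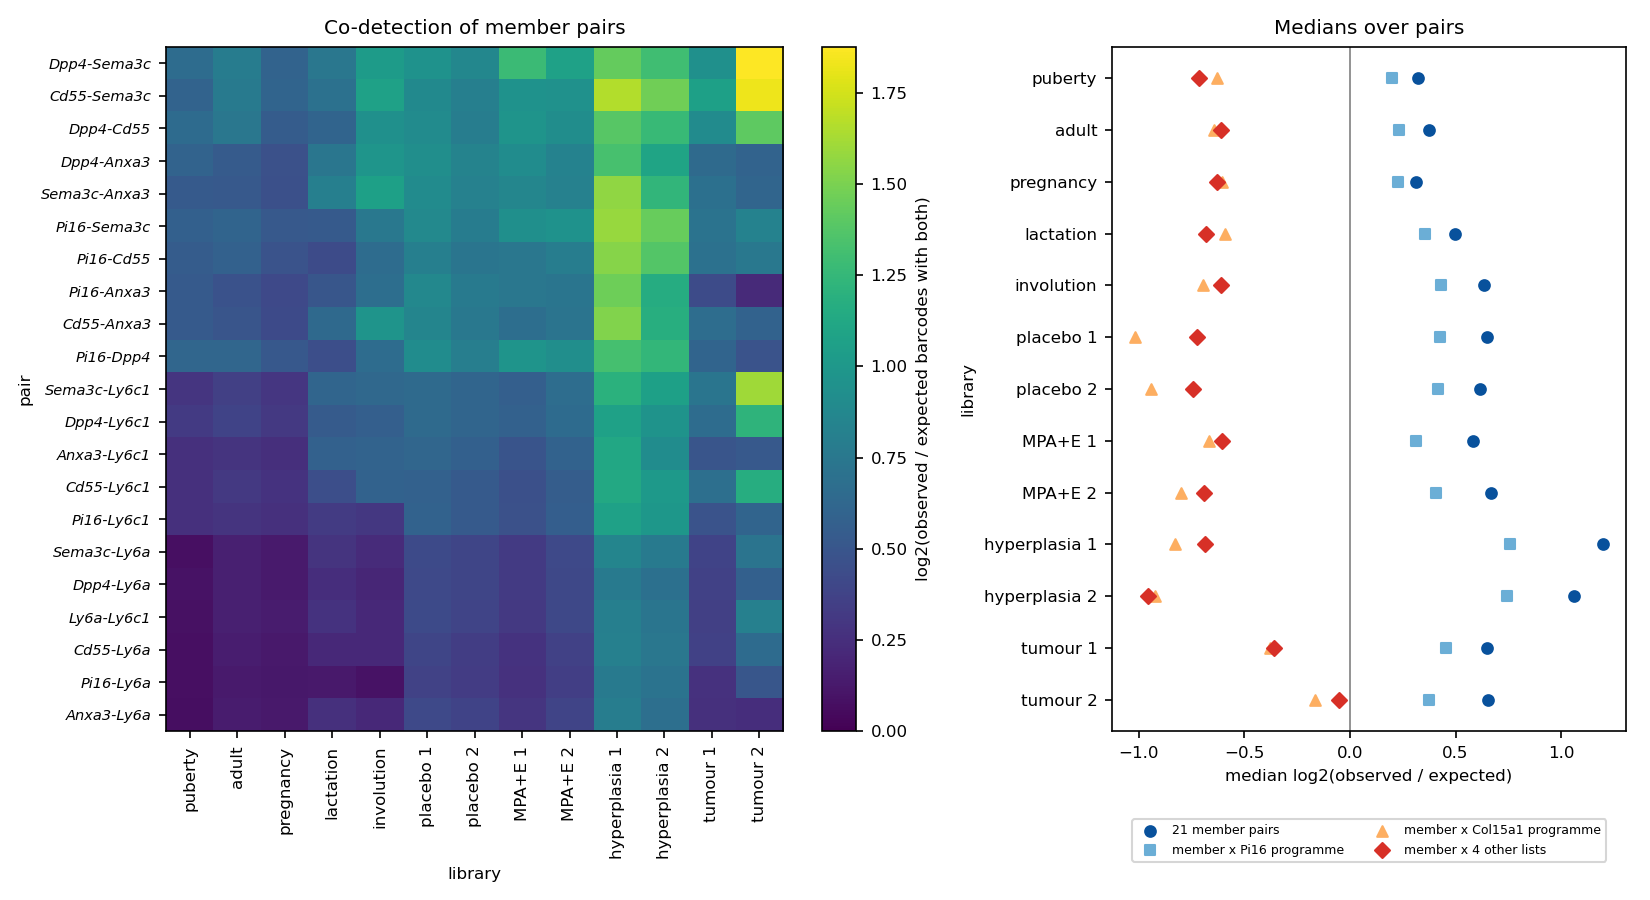
Left, log2 of observed over expected barcodes with both genes (colour) for the 21 member pairs (rows) in 13 libraries (columns); right, the median over pairs (x axis) per library for member pairs and for pairs of a member with genes of other lists. Every member pair was above 0 in every library, with medians from 0.31 in pregnancy to 1.20 in hyperplasia 1, which detection in each library also limits.

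The members were then counted in each thinned barcode. At least 4 of 7 were found in 54.4% of puberty barcodes, 52.5% of adult, 59.0% of pregnancy, 47.7% of lactation and 37.4% of involution barcodes. The hormone libraries gave 43.8% and 46.6% with placebo, and 38.6% and 42.6% in the treated pair. In hyperplasia the shares were 25.9% and 32.3%, and in the tumours 39.8% and 5.67%. Independent genes with the same detection would have given 11.3% and 18.9% in hyperplasia, and the share in tumour 2 was 3.77 times the expected one. In 4 libraries the share was below the expected one, which was 56.7% in puberty, 54.3% in the adult, 63.3% in pregnancy and 51.0% in lactation. The other 9 libraries lay above it.

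Barcodes with none of the 7 were most frequent in hyperplasia, at 39.9% and 35.3%, where independence gave 8.23% and 4.60%. The hyperplasia libraries thus held many barcodes with no member and many with most of them. Tumour 2 held 32.9% with none, and independence gave 23.4%. Puberty had the fewest, at 3.83%.

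**Figure D5:**
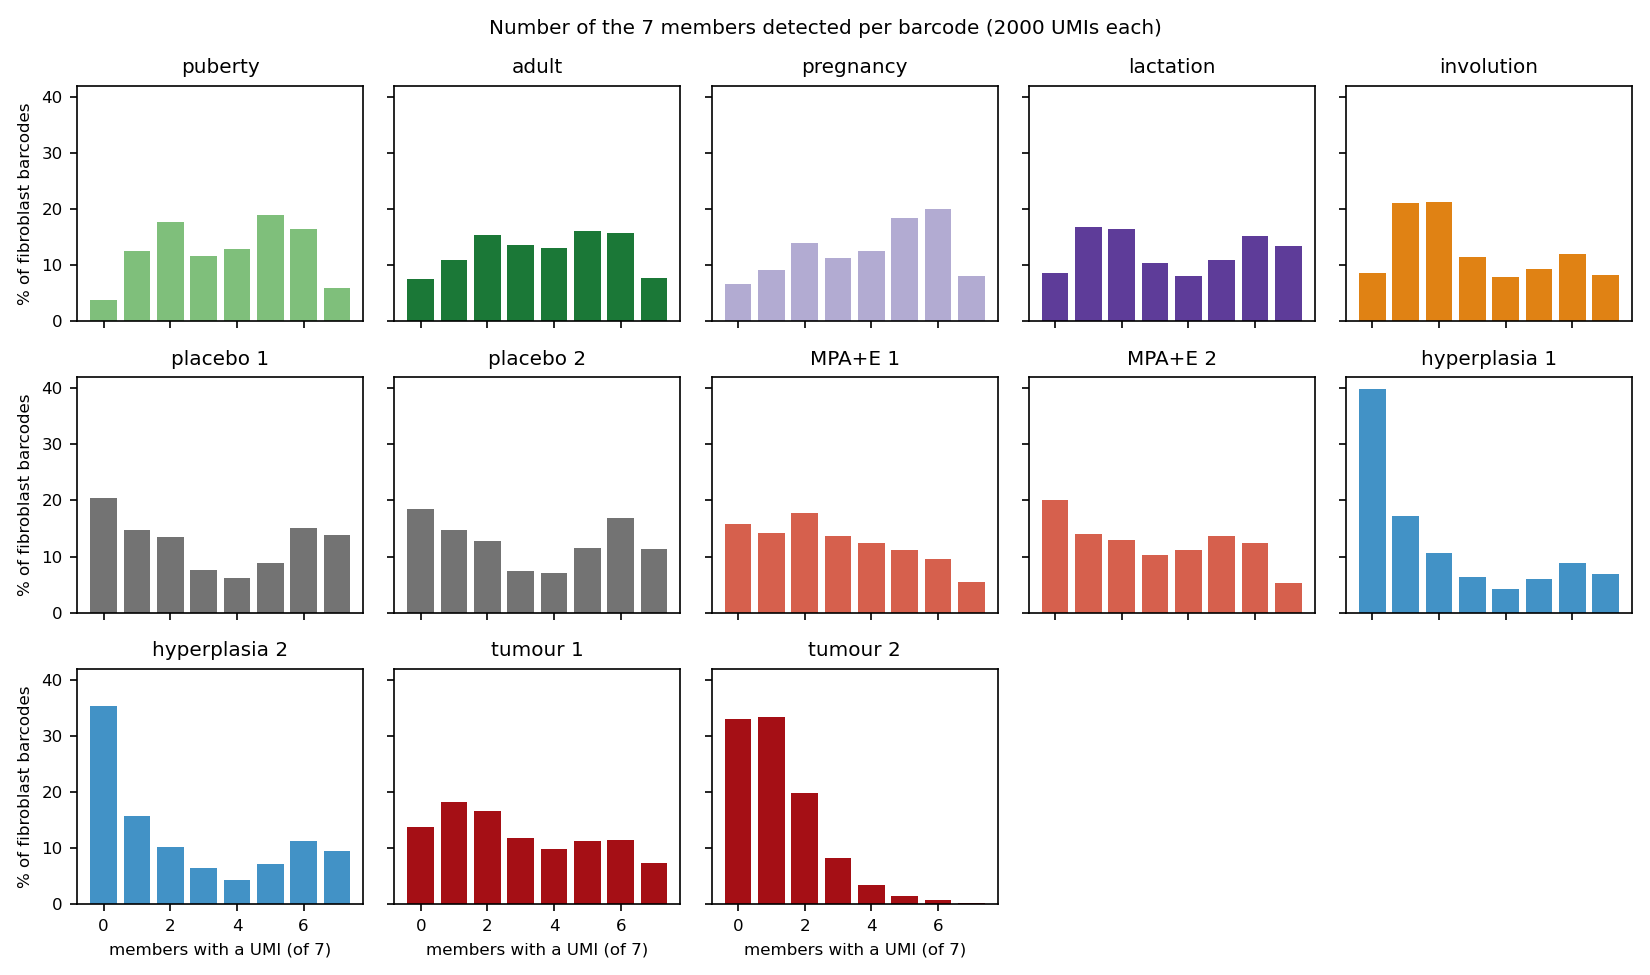
Share of fibroblast barcodes (y axis, percent) by the number of the 7 members with a UMI (x axis) after thinning to 2000 UMIs, 1 panel per library. Hyperplasia 1 and 2 peaked at 0 members with a second rise at 6, as placebo 1 and 2 also did, and tumour 2 had 5.67% of barcodes with 4 or more.

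Detection was set beside barcodes of other lineages, gated on at least 3 UMIs of a lineage gene and below the fibroblast marker limit, and thinned in the same way. In Rgs5-gated barcodes, pericytes by this marker, of the 8 libraries with 20 or more, Dpp4 was found in 0% to 4.82%, Cd55 in 0% to 3.61% and Sema3c in 0% to 5.09%. Pi16 was found in 0.980% to 14.5% and Ly6a in 0.980% to 14.4%, and their median depths were 2747 to 7394 UMIs. Anxa3 reached 32.2% there. In Pecam1-gated barcodes of involution and MPA+E 1 the Ly6 genes were found in 80.4% to 87.5%.

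Fibroblast barcodes held Dpp4 in 21.8% to 37.0% of cases outside tumour 2 and Sema3c in 20.9% to 45.9%. In tumour 2 the shares were 6.07% for Dpp4, 6.56% for Cd55 and 6.95% for Sema3c. The Epcam-gated barcodes of tumour 2, at a median of 10255 UMIs, held Sema3c in 17.1%, above the fibroblast share. Epcam-gated barcodes of other libraries also held Sema3c, in 9.09% to 18.2%, while Rgs5-gated barcodes held it in at most 5.09%. In tumour 2 the barcodes with both Sema3c and Dpp4 numbered 63, where 17.2 were expected. In the 25 Epcam-gated barcodes of MPA+E 1, at a median of 14752 UMIs, Anxa3 was found in 52% and Ly6a in 32%, where fibroblast barcodes held them in 42.7% and 78.9%. In the 20 of the adult, at a median of 5126 UMIs, the shares were 35% and 25%, against 59.9% and 87.8% in fibroblasts. The part of free RNA in the Sema3c share of tumour 2 was not tested. Pi16 in tumour 2 was found in 20.9% of fibroblast barcodes and in 1.32% of Epcam-gated barcodes.

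Barcodes with at least 4 members were last compared with barcodes holding at most 1, library by library, as a description of what travels with the 7. The highest mean log2 ratios over 13 libraries belonged to Smpd3 (5.82, SD 1.41), Akr1c18 (5.76), Limch1 (5.48), Aldh1a3 (5.47), Dmkn (5.37), Krtdap (5.24) and Efhd1 (5.17). Car8, Lurap1l, Sbsn, Ston2 and Edn1 completed the 12, from 4.92 to 4.25, and each was above 0 in 13 of 13 libraries. Aldh1a3 makes retinoic acid, Akr1c18 reduces progesterone, and Edn1 encodes endothelin. Dmkn, Krtdap and Sbsn are otherwise known from keratinocytes.

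The lowest were Crabp1 (-4.63), Col13a1 (-4.57), Pla2g7 (-4.36), Angpt2 (-4.23) and Lamc3 (-4.22), followed by Hc, Igfbp2, Rgs2, Egflam, Nos1, Map2 and Ednra, from -3.90 to -3.63. Each was below 0 in 13 of 13 libraries. Crabp1 binds retinoic acid in the cytoplasm and Ednra is a receptor of endothelin. The 22 Pi16 programme genes all had mean ratios above 0, with a median of 2.28, where 4302 of 8302 genes did, with a median of 0.01. Of 8 Col15a1 programme genes 0 did, nor did any of the 4 preadipocyte, 4 adipogenesis-regulatory, 6 ECM remodelling and 6 myofibroblastic genes. Of 5 lobular genes at 10 CPM or more 2 did, Eng (0.11) and Fndc1 (3.25, above 0 in 13 of 13 libraries). Cd34 stood at 2.13 and Col15a1 at -3.03. All 8 interferon genes were above 0, with a median of 0.59, led by Irf7 (1.64) and Bst2 (1.21).

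Before thinning, barcodes with at least 4 members were deeper than those with at most 1 in 9 of 13 libraries. Their median was 11761 UMIs against 6821 in hyperplasia 2 and 19267 against 13232 in MPA+E 1. It was lower in pregnancy, in lactation and in both tumours, at 18652 against 21752 in tumour 2. The part of this depth in the gene differences between the 2 sets was not tested.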

How the data were processed

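The authors sequenced 13 libraries of sorted mammary stromal cells with a droplet 3′ method and deposited raw UMI counts per gene and barcode, with no normalization. The submitters' processing notes name Cell Ranger 6.1.2 and mm10, and the annotation release is not given in the sources used here. The members and the gene lists were chosen with earlier results of these data known, so no list is independent support.

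Fibroblast barcodes were selected by the limits given above. No doublet caller was run. UMI counts were summed per library. MPA+E and placebo were compared with edgeR 4.0.16 (quasi-likelihood, TMM, filterByExpr). Tumour, hyperplasia and normal libraries were fitted together with limma-voom (limma 3.58.1), and p-values were adjusted by Benjamini-Hochberg over all genes tested, with a threshold of 0.05. DESeq2 1.42.0 was an alternative. All members passed the filter on low counts. Each tumour shares its mouse with the hyperplasia of its number, as the labels state, and deviations of these pairs from the group means correlated at 0.181 over 16302 genes. Placebo and MPA+E replicates are pools of females, so p-values measure the spread between pools.

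Genes named were the 7 members, Cd34 and Col15a1, genes of the lists that passed a test (at most 8 per list by size; the interferon list is given by its range under MPA+E, and 1 item is not reported here), the 3 genes most like each member (mean CPM of at least 10) and the 12 highest and 12 lowest genes in member-rich barcodes (mean CPM of at least 50). Ly6e, Cd55b and Ly6c2 were added after their values were seen, and the split by Pi16 was chosen after seeing the data. The tests were checked on simulated data. The simulation gave every gene the same dispersion and held no distance like that between the tumours, so it does not cover the errors of those fits. Alternatives changed the tool, size factors, filters, marker sum, exclusion genes, mitochondrial limit and replicates, and left out the top 5% of barcodes by UMIs, where doublets would lie. Intervals are 95% exact Poisson for levels and exact conditional binomial for ratios. Shares in barcodes used thinned counts.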

Additional observations from a re-analysis of the deposited data

Results flagged for a closer look

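In 5 of the 7 members the change from hyperplasia to tumour went one way in mouse 1 and the other way in mouse 2, with 1 hyperplasia and 1 tumour library per mouse, so the difference between the mice was not tested. For Pi16 the log2 ratio of tumour over hyperplasia was 0.14 in mouse 1 and -2.75 in mouse 2, a difference of -2.89. Sema3c gave 0.16 and -3.24, a difference of -3.40, and Anxa3 gave 0.13 and -2.17, a difference of -2.29. In mouse 1 the tumour levels of Pi16, Sema3c and Anxa3 were 1.105, 1.116 and 1.093 times those of hyperplasia, close to no change. The Ly6 genes had the highest ratios in mouse 1. Ly6a gave 0.74 and -1.41, a difference of -2.15, and Ly6c1 gave 0.52 and -2.21, a difference of -2.73. Dpp4 (-0.38 and -2.95) and Cd55 (-0.37 and -3.60) were lower in the tumour of both mice.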

How the results depend on the processing

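MPA+E called 3 members; 6 were called with DESeq2, 5 with a marker sum of at least 100, and 0 to 2 when a library was left out. With the replicate block 6 members and 2451 of all genes were called, where the fit without it called 678; deviations of same-numbered libraries correlated at 0.552, but these numbers are not stated to pair placebo and MPA+E, and the cause was not tested. DESeq2 called 1358 genes, and leaving out a library 22 (without placebo 1) to 900. The block for the mouse changed no call of a member in the tumour comparison (0, and 4898 of all genes beside 4777). Leaving out a library gave 0 to 7 members and 242 to 7120 genes there. For hyperplasia against the normal gland 1 member (Ly6a) was called with RLE size factors, with no filter on low counts and without the top 5% of barcodes by UMIs, and a library left out gave 0 members and 1 to 183 genes beside 2280, with fewer samples in the fit. Signs turned for Anxa3 under MPA+E (-0.24 to 0.14 over libraries left out, 0.03 without placebo 2), for Sema3c (-3.30 to 0.23), Ly6a (-1.15 to 0.50) and Ly6c1 (-1.97 to 0.30) in the tumour comparison, for Dpp4 in hyperplasia with the marker sum of 100 (-0.016), and for Col15a1 in hyperplasia (-0.12 to 0.15, -0.03 without the adult). Stage ratios kept their stages. A marker sum of 100 gave 1.79 for Pi16, 1.65 for Sema3c and 2.72 for Anxa3, keeping the exclusion genes gave 1.82 for Pi16, and leaving out the top 5% gave 1.52 for Dpp4, 2.70 for Anxa3, 2.62 for Ly6a and 2.33 for Ly6c1. Thinning to 1000 UMIs lowered the median detection of Dpp4 to 15.9%, Cd55 to 16.7%, Sema3c to 23.7% and Anxa3 to 30.4%, as fewer UMIs must. The median co-detection of member pairs stayed between 0.62 and 0.64 with any library left out. A lone library left in a group was assumed to vary like the others. Stages had 1 library each and allowed no test.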
